A study of Drosophila melanogaster with 24 samples.

Results

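Of 7051 genomic regions at which Non-stop was found in both Non-stop chromatin immunoprecipitation libraries of early Drosophila melanogaster embryos, 135 held no peak of Ada2b, Spt3, Sgf11 or RNA polymerase II (Pol II) in any library. These 135 regions, 1.91% of the total (95% Wilson interval 1.62 to 2.26%), are the subject here and are called Non-stop-alone regions. They were chosen by the measured peak positions themselves. A Non-stop peak was kept when it shared at least 1 bp with a peak of the other Non-stop library, kept peaks that overlapped were merged into regions, and a region was Non-stop-alone when none of the 12 peak lists of the other factors reached it by even 1 bp. The number of such regions is therefore set by the rule and by how many peaks each list holds, and it is given as a description.

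The series mapped subunits of the SAGA coactivator and Pol II by ChIP-seq, which sequences the DNA bound by an antibody's target, in embryos aged 1 to 3 h (stages 4 to 6). Peaks were deposited for 2 Non-stop, 4 Ada2b, 3 Spt3, 3 Sgf11 and 2 Pol II libraries, and 10 further samples were total chromatin, not analysed on their own here. Rabbit sera were raised against residues 178 to 496 of Non-stop, residues 1 to 330 of Ada2b and full-length Spt3 and Sgf11, and the Pol II antibody was the mouse monoclonal 4H8, which binds the repeated C-terminal tail of the largest subunit. All groups came from whole embryos of the same age window, the genotype is not stated in the labels, and no group carried a treatment. The libraries are written by factor and number, such as Non-stop 1924_1, and nothing states that libraries of 1 factor came from separate embryo collections.

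SAGA is a large complex that modifies histones at genes and helps to load the transcription machinery. Non-stop is the ubiquitin protease of its deubiquitinase module, which removes ubiquitin from histone H2B, and Sgf11 is a small subunit of the same module that the protease needs for its activity. Ada2b belongs to the histone acetyltransferase module, and Spt3 belongs to the part that contacts the TATA-binding protein. In this series Sgf11 thus marks the same module as Non-stop, Ada2b and Spt3 mark the rest of the complex, and Pol II marks transcribed or poised genes.

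The remaining 6916 Non-stop regions fell into 3 classes that serve as the background. Another SAGA subunit without Pol II lay at 883 regions, Pol II without another SAGA subunit at 1406, and both at 4627. All 4 other factors were present at 3357 regions, or 47.6% of the total. Regions where a single other subunit was the only companion numbered 84 for Sgf11, 82 for Ada2b and 35 for Spt3. Non-stop-alone regions were thus more numerous than regions with the module partner Sgf11 as the only companion, at 1.91% against 1.19% of all regions. Sgf11 far more often lay together with other factors, as at the 3357 regions with all 4. A further 227 regions held Sgf11 and Pol II without Ada2b or Spt3. All these counts depend on how many peaks each list holds.

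Non-stop was weakly enriched at most Non-stop-alone regions. Fold enrichment, the deposited ratio of reads at the peak summit to the local background, had a median of 2.61 in Non-stop 1924_1 (range 1.67 to 7.54) and 2.64 in Non-stop 1924_2 (range 1.75 to 8.19). At the other 6916 regions the medians were 3.45 and 4.68 in the same libraries. By class, the medians were 4.72 and 5.38 at regions with another SAGA subunit but no Pol II, and 2.30 and 2.28 at regions with Pol II but no other SAGA subunit. In median fold enrichment the Non-stop-alone regions therefore stood close to the Pol II class and below the SAGA class. Strength and membership come from the same libraries, so the strength of these regions is given as a description.

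The same order held on the scale of the peak score, which was turned into a percentile among all peaks of its library. The median percentile was 31.3 in Non-stop 1924_1 and 36.9 in Non-stop 1924_2 at Non-stop-alone regions, against 58.1 and 70.3 at the other regions. Averaged over both libraries, the difference of the class medians was −30.1 percentile points. When all 7051 regions were ordered by mean percentile and divided into 10 groups of equal size, the weakest group held 46 Non-stop-alone regions and the next held 22. The 5 weaker groups together held 115 of the 135, or 85.2%. The 4 strongest groups held 3, 2, 1 and 0.

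**Figure D1:**
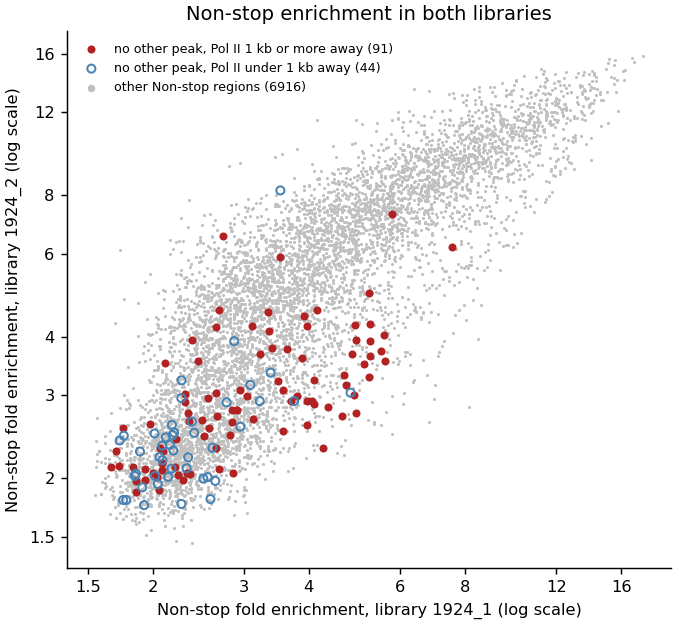
Non-stop fold enrichment at each region in library 1924_1 (horizontal, log scale) and library 1924_2 (vertical, log scale). Red filled points and blue open rings are the 135 Non-stop-alone regions, with 44 rings under 1 kb from a Pol II peak, and grey points are the other 6916 regions. Most rings lie in the lower left corner, and 7 of the 135 reach 4-fold in both libraries.

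Reaching 4-fold in both libraries was uncommon among Non-stop-alone regions, at 7 of 135 or 5.19%. The share was 38.2% at the other regions as a whole, 54.0% where another SAGA subunit lay without Pol II, and 0.4% where Pol II lay without another SAGA subunit. A larger group, 74 of 135 or 54.8%, stayed under 3-fold in both libraries, against 23.6% of the other regions. That share was 7.1% where another SAGA subunit lay without Pol II and 82.1% where Pol II lay without another SAGA subunit. The Non-stop-alone regions thus had a tail of stronger regions, and few regions of the Pol II class reached 4-fold in both libraries.

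The strongest 10 Non-stop-alone regions by mean percentile are given one by one, with dm3 coordinates counted from 1. No annotation of the dm3 build was used, so their place relative to genes and exons was not analysed here. The region at 2R:11425251-11425763, the highest of all, reached 5.78-fold in Non-stop 1924_1 and 7.28-fold in Non-stop 1924_2. Its summits in both libraries lay 13 bp apart, and the nearest peaks of another factor were Pol II at 2674 bp, Sgf11 at 2969 bp and Spt3 at 2991 bp. At 2L:15779920-15780247 the enrichment was 7.54-fold and 6.19-fold, the summits were 1 bp apart, and no other factor came closer than 8482 bp. At 2L:3080446-3080796 it was 5.21-fold and 4.94-fold. Around that last region the nearest Pol II, Ada2b, Spt3 and Sgf11 peaks were all between 7902 and 7988 bp away, as was the next Non-stop region at 7942 bp.

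A further pair of strong regions lay on X beside sites of other factors. X:13267148-13267501 was uneven between libraries, with 3.53-fold enrichment in Non-stop 1924_1 and 8.19-fold in Non-stop 1924_2. A Pol II peak began 289 bp from it and another Non-stop region 133 bp from it. X:1549807-1550121 had 4.15-fold and 4.56-fold enrichment and sat 269 bp from Sgf11 and 299 bp from Ada2b, with Pol II 8858 bp away. In that last case another Non-stop region lay nearer still, at 252 bp. The deubiquitinase partner and the acetyltransferase subunit were adjacent to the Non-stop-alone region but did not reach it. Whether their peaks overlapped the other Non-stop region was not analysed here.

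The rest of the strongest regions had no peak of another factor within 1 kb. Enrichment was 5.26-fold and 4.26-fold at 3L:2273620-2273921, where all 4 other factors were nearest between 7358 and 7613 bp away. It was 4.90-fold and 4.24-fold at 3R:14403797-14404099, whose nearest SAGA peak, of Sgf11, was 12399 bp away and whose nearest Spt3 peak was 80696 bp away. These regions were thus remote from the other subunits on different scales. At 2R:7286896-7287468 the values were 5.59-fold and 4.03-fold, with Pol II at 1383 bp. At X:6026741-6027027 they were 5.10-fold and 3.50-fold, with Pol II at 32439 bp and Sgf11 at 12828 bp. At 2R:2957280-2957641 they were 5.50-fold and 3.72-fold, with every other factor between 7617 and 7918 bp away. In all of these remaining regions the enrichment was higher in Non-stop 1924_1 than in Non-stop 1924_2.

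Over all Non-stop-alone regions the split between both libraries was close to even. Fold enrichment was higher in Non-stop 1924_1 than in Non-stop 1924_2 at 69 of the 135 Non-stop-alone regions, or 51.1%, against 26.7% of the other regions. The difference was 24.4 percentage points (95% Newcombe interval 16.0 to 32.8). The share was 54.9% where Pol II lay without another SAGA subunit, a difference of −3.8 points whose interval included 0 (−12.5 to 4.9), and 40.5% where another SAGA subunit lay without Pol II. The other regions as a whole, most of which held both, were thus higher in Non-stop 1924_2. The median log2 ratio of 1924_1 to 1924_2 was 0.00 at Non-stop-alone regions and −0.26 at the others. Intervals on shares and on their differences cover counting error over regions only, were not adjusted for the number of comparisons, and do not treat regions as replicates of a condition. Since the sources do not tell whether both Non-stop libraries came from separate embryos, the spread between them may be technical.

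Across the 135 regions the fold enrichments of both libraries had a Spearman correlation of 0.738, a description over regions that share the same 2 libraries. By class it was 0.728 where another SAGA subunit lay without Pol II, 0.509 where Pol II lay without another SAGA subunit and 0.844 where both lay. Within the 135 it was 0.543 at the 44 regions under 1 kb from Pol II and 0.691 at the other 91. It was 0.678 at the 106 regions up to 500 bp wide and 0.051 at the 29 wider ones. The Pearson correlation of log2 enrichments at those 29 was 0.752.

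The position of the Non-stop summit was less repeatable between libraries at Non-stop-alone regions than at regions with another SAGA subunit. Against regions with Pol II only it was more repeatable. The rule did not use the summit itself, but summits can lie no farther apart than a region is wide. Width is bound up with the rule, and it differed between the classes. The median distance between both summits was 26 bp at Non-stop-alone regions. It was 23 bp at those up to 500 bp wide and 70 bp at wider ones. The part of width in the differences between classes was not tested. Summits lay within 50 bp of each other at 87 of 135, or 64.4% (Wilson interval 56.1 to 72.0%). The share was 92.2% where another SAGA subunit lay without Pol II, a difference of −27.7 points (−36.3 to −19.9). It was 33.9% where Pol II lay without another SAGA subunit, a difference of 30.5 points (21.8 to 38.5). Against all other regions together, at 71.3%, the difference was −6.9 points with an interval that included 0 (−15.3 to 0.8).

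Non-stop-alone regions were narrow. Their median width was 320 bp (range 204 to 964 bp), against 510 bp at the other regions, 358 bp where another SAGA subunit lay without Pol II and 724 bp where Pol II lay without another SAGA subunit. Only 29 of the 135, or 21.5%, were wider than 500 bp, against 51.4% of the other regions. A wider region can touch more peaks, so width is bound up with the rule. With every peak taken as 200 bp around its summit the difference of the median widths was 33.5 bp. Peak widths are then equal by construction and region width follows only the spacing of summits, so this value does not bear on width. In 131 of the 135 a single peak of each Non-stop library made up the region.

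**Figure D2:**
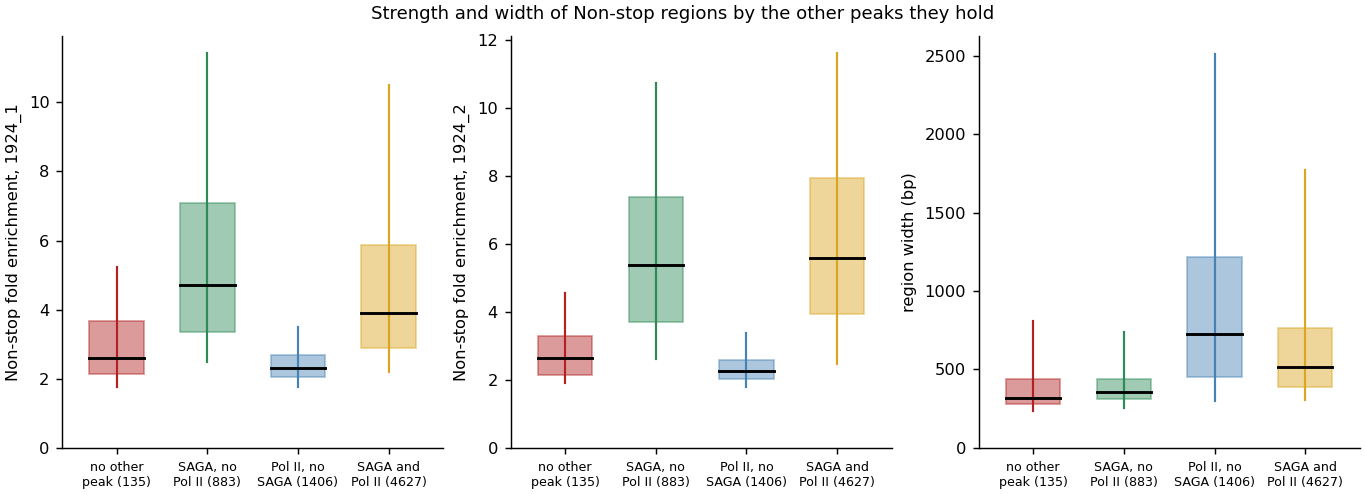
Non-stop fold enrichment in libraries 1924_1 (left) and 1924_2 (middle) and region width in bp (right), by the other peaks a region holds. Black lines are medians, boxes run between the quartiles and whiskers between the 5th and 95th percentiles. Non-stop-alone regions, the leftmost box, have median enrichments of 2.61 and 2.64 near those of the Pol II class and a median width of 320 bp near that of the SAGA class.

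Although no peak of another factor touched these regions, many had one close by, and Pol II was the nearest of the 4. The median distance was 2392 bp to Pol II, 4805 bp to Sgf11, 6817 bp to Ada2b and 6852 bp to Spt3. Pol II lists covered the most sequence, 17.5 and 11.1 Mb, against less than 4 Mb in each list of the other 3 factors, so these distances also follow the amount of sequence called. Pol II came within 100 bp of 8 regions, within 500 bp of 31 and within 1 kb of 44, or 32.6% (Wilson interval 25.3 to 40.9%). Another SAGA subunit came within 1 kb of 17 regions and within 5 kb of 75. At the far end, 15 of the 135 had no peak of any other factor within 20 kb. Some of these lay off the main chromosome arms, on heterochromatic or unplaced sequence. The median distance to the nearest peak of any other factor was 40649 bp at the 12 regions off the arms and 1388 bp at the 123 on them.

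Set against regions that also lack Pol II, Non-stop-alone regions lay closer to it. Pol II was within 1 kb of 32.6% of Non-stop-alone regions and 17.1% of regions with another SAGA subunit but no Pol II, a difference of 15.5 points (7.7 to 24.1). Set against regions that also lack other SAGA subunits, they lay farther from those. Another subunit was within 5 kb of 55.6% of Non-stop-alone regions and 88.7% of regions with Pol II only, a difference of −33.1 points (−41.7 to −24.8). The first of these differences turned to −2.91 points with only the upper 50% of peaks of each list. The second was −20.5 points without Pol II 1188_2 and turned to 4.14 points with 200-bp peaks.

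**Figure D3:**
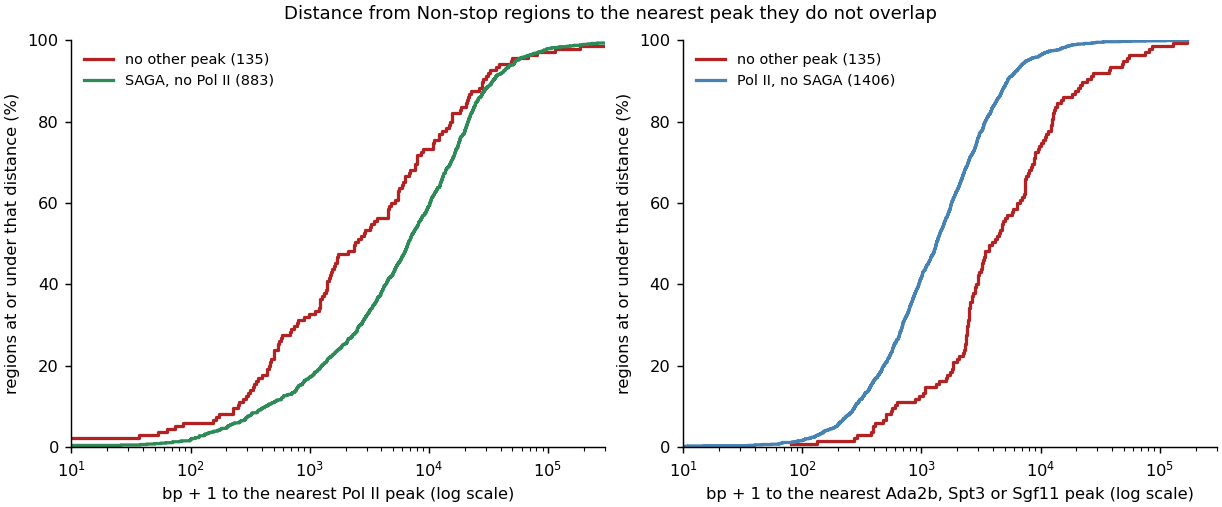
Cumulative share of regions (%) against the distance in bp + 1 (log scale) to the nearest Pol II peak (left) and to the nearest Ada2b, Spt3 or Sgf11 peak (right). Red lines are the 135 Non-stop-alone regions, the green line the 883 regions with another SAGA subunit but no Pol II, and the blue line the 1406 regions with Pol II but no other SAGA subunit. At 1 kb the left panel reads 32.6% for Non-stop-alone regions against 17.1%, and at 5 kb the right panel reads 55.6% against 88.7%.

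Non-stop-alone regions near Pol II and those away from it differed in strength and width. The 44 regions under 1 kb from a Pol II peak had median enrichments of 2.20 and 2.33, against 2.91 and 2.92 at the other 91. Their median mean percentile was 21.7, against 42.2. A mean percentile of at least 50 was reached by 9.1% of the regions near Pol II and 42.9% of the others, a difference of −33.8 points (−45.4 to −18.3). They were also wider, with medians of 384 bp near Pol II and 305 bp elsewhere, and 36.4% against 14.3% exceeded 500 bp, a difference of 22.1 points (6.8 to 37.9). Regions away from Pol II were thus more often strong and narrow than those near it, and they were also the larger group, 91 against 44.

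Within the 135, the Spearman correlation of mean percentile was 0.467 with distance to Pol II, 0.152 with distance to the nearest other SAGA subunit and −0.378 with width. The 29 regions wider than 500 bp had a median mean percentile of 16.2 and lay a median of 737 bp from Pol II. The 106 narrower regions had a median mean percentile of 40.7 and lay a median of 4725.5 bp from Pol II.

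The regions that only just met the rule lay at the edges of Pol II peaks. X:19151443-19152003 abutted a Pol II peak with no base between them, with 2.20-fold and 2.50-fold Non-stop enrichment, and X:8603856-8604116, with 3.22-fold and 2.92-fold, and X:21473148-21473529, with 2.55-fold and 2.01-fold, were each 2 bp from one. Those that only just missed it were held out by Pol II 1188_2 alone. The overlap was 9 bp at 2L:13014302-13014568 and 10 bp at 2L:16830744-16831167, where enrichment lay between 1.95-fold and 2.14-fold. It was 57 bp at X:16855152-16855453. The mean percentiles were 26.5, 43.4 and 19.1 inside the limit and 13.0, 20.0 and 7.004 outside it.

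A single Pol II library set much of the membership. Exactly 1 library of another factor kept 216 regions from being Non-stop-alone, and for 128 of these it was Pol II 1188_2. Spt3 1760_2 alone kept out 31, Sgf11 1377_2 kept out 19 and Pol II 1632_1 kept out 15, and the other 8 libraries between 0 and 8 each. Without Pol II 1188_2 the number of Non-stop-alone regions would be 263, and without Spt3 1760_2 it would be 166. Where every peak of a single Non-stop library was taken as a region, 873 of those in Non-stop 1924_2 and 281 of those in Non-stop 1924_1 held no other peak. The regions held out by Pol II 1188_2 alone had a median mean percentile of 22.3, and those held out by Spt3 1760_2 alone had 43.7. The part of the unequal sequence covered by the Pol II lists in this count was not tested.

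**Figure D4:**
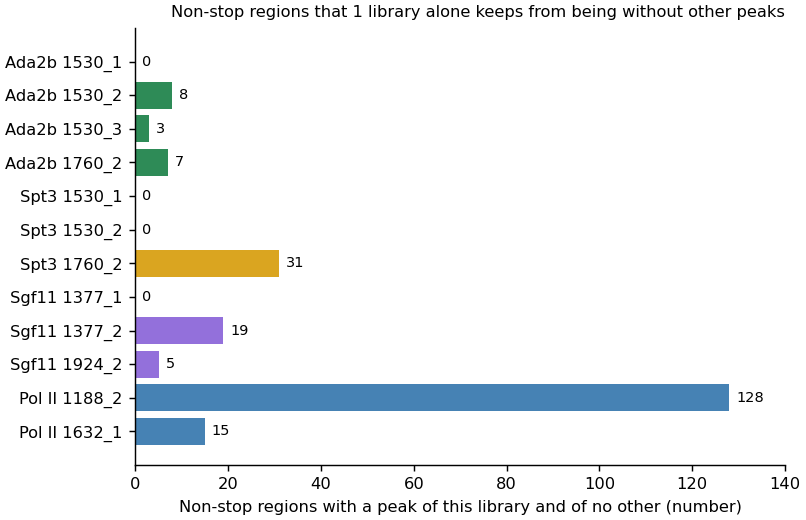
Number of Non-stop regions that hold a peak of the named library and of no other library of another factor, for the 12 libraries. Pol II 1188_2 has the longest bar, 128 regions, followed by Spt3 1760_2 with 31, and 4 libraries stand at 0.

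Most Non-stop-alone regions had no other of their kind nearby, but more had one as their nearest Non-stop neighbour than regions of the other classes did. Another Non-stop-alone region lay within 5 kb of 18 of the 135, or 13.3%, and these formed 9 pairs with no longer run. Non-stop regions of any class lay within 5 kb of 77, or 57.0%, against 72.6% at the other regions, a difference of −15.5 points (−24.0 to −7.4). The difference was −2.80 points without Pol II 1188_2 and turned to 23.6 points with 200-bp peaks. Where another SAGA subunit lay without Pol II the share was 46.2%, and where Pol II lay without another SAGA subunit it was 93.8%. The nearest Non-stop neighbour of a Non-stop-alone region held both another SAGA subunit and Pol II in 63 cases, another SAGA subunit only in 30 and Pol II only in 26. It was a further Non-stop-alone region in 16, or 11.9%, against 1.55% at the other regions, a difference of 10.3 points (5.9 to 16.8). That share was 3.96% where another SAGA subunit lay without Pol II and 0.996% where Pol II lay without another SAGA subunit. Members of a pair can count each other, so these 16 are not independent. A nearest neighbour of the same class was also common in the other classes, which hold more regions. That share was 38.3% where another SAGA subunit lay without Pol II and 47.3% where Pol II lay without another SAGA subunit. Among Non-stop-alone regions, the nearest neighbour belonged to those classes in 22.2% and 19.3%.

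The strongest of the 9 pairs lay on 2R, at 2R:2835145-2835451 and 2R:2836424-2836813, separated by 972 bp. Enrichment was 5.24-fold and 3.91-fold at the one and 5.60-fold and 3.55-fold at the other, in Non-stop 1924_1 and 1924_2. They were not each other's nearest Non-stop region, since other Non-stop regions lay 116 and 394 bp from them. Ada2b lay 80 and 406 bp from them, while Pol II, Spt3 and Sgf11 were all more than 20 kb away. Whether the Ada2b peaks overlapped those other Non-stop regions was not analysed here. Next by strength was a pair on X, at X:21102260-21102528 and X:21103015-21103454, separated by 486 bp. Its members had 4.36-fold and 2.84-fold and then 4.67-fold and 3.31-fold enrichment. That second pair was isolated, with Pol II no nearer than 48591 bp and the closest SAGA subunit, Sgf11, no nearer than 48697 bp. A weaker pair, X:19147591-19148291 and X:19151443-19152003, lay 3151 bp apart beside Pol II peaks at 503 and 0 bp, with enrichments between 1.73-fold and 2.50-fold. Other Non-stop regions lay 1150 and 849 bp from its members.

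Along the chromosomes Non-stop-alone regions followed the other Non-stop regions on most arms. They numbered 16 on 2L, 23 on 2R, 24 on 3L, 30 on 3R, 1 on the small chromosome 4 and 29 on X. The remaining 12 lay off these arms, on the heterochromatic and unplaced scaffolds of dm3, with 3 each on 2RHet, U and Uextra and 1 each on 3LHet, 3RHet and XHet. The mitochondrial genome held 10 Non-stop regions, none of them Non-stop-alone. The counts on the arms also follow how many Non-stop regions each arm holds. Non-stop-alone regions made up 1.28% of all regions on 2L, 1.70% on 2R, 1.84% on 3L and 1.89% on 3R. They made up 0.621% on chromosome 4 and 2.52% on X. On 2L lay 11.9% of Non-stop-alone regions and 17.8% of the others, a difference of −6.0 points (−10.5 to 0.6). That difference was 1.86 points (−4.41 to 10.1) with the upper 50% of peaks of each list.

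The share off the arms was 8.89% of Non-stop-alone regions and 3.4% of the others, a difference of 5.5 points (1.7 to 11.5). It exceeded the 1.3% of the Pol II class by 7.6 points (3.8 to 13.6), but did not differ beyond counting error from the 9.7% of the class with another SAGA subunit and no Pol II, with a difference of −0.9 points (−5.1 to 5.4). The 5.5 points against all other regions became 0.486 when Non-stop 1924_1 was left out and turned to −0.966 with 200-bp peaks. On X the share was 21.5% against 16.2% of the other regions, a difference of 5.3 points whose interval included 0 (−0.9 to 13.0). That difference was −4.58 points (−6.80 to −2.09) with 200-bp peaks and 32.9 points (6.4 to 59.3) with the same number of peaks in every list, which left 10 Non-stop-alone regions. On 3R it was −12.0 points (−16.6 to −5.0) with the upper 50% of peaks of each list, against −0.276 points with all peaks. The X share exceeded the 13.0% of the Pol II class by 8.5 points (2.1 to 16.3).

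**Figure D5:**
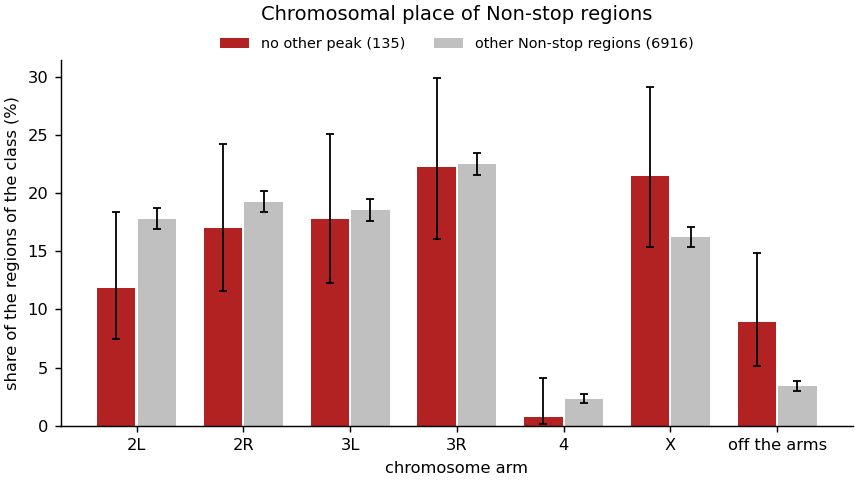
Share of Non-stop-alone regions (red, 135) and of the other Non-stop regions (grey, 6916) on each chromosome arm and off the arms, in percent, with 95% Wilson intervals. The red bar off the arms, at 8.89%, stands above the grey bar at 3.4%, and on every other arm the intervals overlap.

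All 12 regions off the arms were narrow, between 214 and 298 bp. Their enrichment ranged between 1.86-fold and 3.75-fold in Non-stop 1924_1 and between 1.86-fold and 4.19-fold in Non-stop 1924_2. None had a Pol II peak within 500 bp, and the median distance to Pol II along the same dm3 sequence was 49338 bp. Since U and Uextra hold unplaced sequence, distances along them may not be distances in the genome. The authors' alignment also kept reads that matched a few places in the genome, and the share of such reads at these regions was not analysed here.

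Non-stop peaks seen in a single Non-stop library, which the rule left out, were also mostly shared with other factors. Of 917 peaks found in Non-stop 1924_1 alone, 127 or 13.8% (Wilson interval 11.8 to 16.2%) held no peak of another factor, with a median enrichment of 2.35-fold. Of 4570 found in Non-stop 1924_2 alone, 727 or 15.9% (14.9 to 17.0%) held none, with a median of 2.19-fold and a highest value of 4.75-fold. Of the regions found in both libraries, 1.91% were Non-stop-alone. That is a share of merged regions and the others are shares of single peaks. Merged regions can be wider and so touch more peaks, and the shares are not on the same unit.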

How the data were processed

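The authors' peak lists of 14 libraries were used, 1 list per library. Per the labels and the methods, 50-bp single reads were called with CASAVA 1.8.2, aligned to dm3 with Bowtie and turned into peaks with MACS2 at default settings. The methods state peak calling for Ada2b, Spt3 and Sgf11, and the steps for Non-stop and Pol II, the tool versions and the control of each list are not given in the sources used here. Each deposited list holds a score, the ratio of fold enrichment at the summit and −log10 of the q-value. No read counts were used, so depth is unknown and the number and width of peaks, 1563 to 12073 peaks a list, can follow it. Non-stop 1924_2 and Sgf11 1924_2 name the same total chromatin sample.

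Lists were compared in Python 3.11.15 with numpy 2.4.6, with an overlap of at least 1 bp, and the region counts were checked with bedtools 2.31.1 and on simulated peaks. Where a region held several peaks of a library, the one with the highest score was used, and its percentile was taken among all peaks of that library. Distances run between the nearest ends. Shares have 95% Wilson intervals and differences of shares 95% Newcombe intervals. No test was run, since the members come from the measured peaks. The regions named are the 10 highest by mean percentile, the 3 nearest the limit on each side and the 3 pairs highest by percentile. The members and lists were chosen with earlier results of these data known. Motifs and distances to gene starts were planned but not run, as no dm3 genome or annotation was used.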

Additional observations from a re-analysis of the deposited data

How the results depend on the processing

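The number of Non-stop-alone regions was 115 (3.01% of regions) with the upper 50% of peaks of each list, 131 with an overlap of 50% between Non-stop peaks, 98 (1.39%) and 81 (1.15%) when a peak within 500 or 1000 bp also counted, and 417 (5.91%) when only peaks seen in 2 or more libraries of a factor counted. It was 10 (0.816%) with the same 1563 top peaks in every list, and 917 (13.95%) with peaks taken as 200 bp around the summit, both of which also change the Non-stop peaks, and 770 of the 917 lay in a full-width Pol II peak. Leaving out a library gave 135 to 873 regions (1.91 to 7.23%), with 873 without Non-stop 1924_1, 281 without Non-stop 1924_2 and 263 without Pol II 1188_2.

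The difference in median percentile between Non-stop-alone and other regions kept its sign. It was −15.7 with the upper 50% of peaks, −24.1 with the 1000-bp limit, −40.9 with 200-bp peaks and −1.61 with equal lists, which had 10 regions, and −38.7 to −26.4 without a library. With the upper 50% and with equal lists, percentiles still came from the full lists. Only the upper part of the scale was then left, so those differences had less room by construction. The width difference was −134.5 bp with equal lists and −199 to −114 bp without a library. It was 33.5 bp with 200-bp peaks, which all have the same width by construction, so that value does not bear on width. The difference in the share off the arms turned to −2.88 with equal lists and −0.966 with 200-bp peaks, and was 0.486 to 7.91 points without a library, the lowest without Non-stop 1924_1.

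Against regions with another SAGA subunit and no Pol II, the difference in the share within 1 kb of Pol II turned to −2.91 points with the upper 50% of peaks, and was 3.21 with reproducible other peaks and 3.66 with equal lists. Against regions with Pol II only, the difference in the share within 5 kb of a SAGA subunit turned to 4.14 with 200-bp peaks, was −13.0 with reproducible peaks, −22.9 with equal lists and −11.5 at 20 kb, and was −35.7 to −20.5 without a library, the smallest without Pol II 1188_2. The difference in any Non-stop neighbour within 5 kb turned to 23.6 with 200-bp peaks and 16.7 with equal lists, was −25.7 and −31.9 with the 500- and 1000-bp limits, and was −19.1 to −2.80 without a library, the smallest without Pol II 1188_2. For neighbours of the same class the unequal class sizes fix the sign, so these values do not bear on grouping, and it was −39.4 with the upper 50%, −66.1 and −67.4 with those limits, −51.3 with reproducible peaks, −3.21 with equal lists, −19.2 with 200-bp peaks, −34.0 at 1 kb and −72.3 at 20 kb, and −60.4 to −50.1 without a library. The causes were not tested. Comparisons with Pol II and SAGA distance, with any Non-stop neighbour and between Non-stop-alone regions near and far from Pol II were chosen after seeing the data.

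Of 335 alternative values for 15 results, 275 were counted as within the limit, 53 as moved further and 7 as turned in sign. The limit was a factor of 1.5 for counts, the 95% interval for shares and 1 SD between both Non-stop libraries for medians. A turn of sign was counted only for results whose main interval held values of the same sign throughout. The width difference with 200-bp peaks was among the 7, although it does not bear on width. Other changes of sign were counted by size. The X difference, which went from 5.3 to −4.58 points with 200-bp peaks, was among the 53. Differences with fold enrichment or −log10 q in place of the score were among the 275, although the limit is on another scale. Depth is unknown, so whether a missing peak reflects absent binding or too few reads cannot be told apart.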
